A study of Oryza sativa with 4 samples.

Results

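The Aux/IAA family of rice, a family of short-lived repressors of auxin-responsive genes, was examined in 2 panicle RNA libraries. Its 31 listed loci, OsIAA1 to OsIAA31, were taken by locus identifier, and 30 of them were read from an expression table of 55986 loci. The locus of OsIAA5, LOC_Os01g48450, was not analysed here. The RefSeq gene table (assembly ASM3414082v1) held 28 of the 31 names as synonyms, and all 28 stood there on the chromosome that the locus identifier gives. The series asked which genes OsGRF6 regulates, a growth-regulating factor and thus a transcription factor of a family that the microRNA miR396 represses. It held 4 libraries in 4 groups, 1 in each. The expression groups were panicles of p35S:MIM396 plants and panicles of the wild type Yutai B, both taken while secondary branches were developing. MIM396 is a decoy RNA that sequesters miR396, and the constitutive 35S promoter drives it in all tissues and not in the panicle alone. Binding was mapped in callus of p35S:GRF6-GFP lines with an anti-GFP antibody, beside an input library. How many plants or lines entered a library is not given in the labels. There were no replicates, so differences between genotypes could not be tested, and each one below describes a pair of libraries.

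Aux/IAA proteins carry a motif that recruits TOPLESS-type corepressors, a degron that auxin glues to the F-box receptors TIR1 and AFB, and a C-terminal domain that binds auxin response factors (ARFs), the DNA-binding proteins of the pathway. When auxin rises, the receptors mark Aux/IAA proteins for destruction and the ARFs are released. Many Aux/IAA genes are themselves switched on by auxin, which closes a feedback loop, and auxin transport and response pattern the branches and spikelets of the inflorescence.

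Recovered reads numbered 16337526 for wild type and 13125593 for MIM396. They were obtained by dividing the read columns by the factor each library had been multiplied by. The libraries differed far beyond the Aux/IAA family, and the labelled tissue was checked with 2 marker lists drawn from general knowledge of rice loci, since the files do not name them. Levels are in FPKM, a fragment count that the authors scaled for locus length and library, but the library totals stayed unequal. Of 16 listed panicle and meristem regulators, 12 had at least 1 FPKM in the MIM396 library and 7 in the library labelled wild type. In the latter library 5 were listed at 0. The summed level of the 16 was 1131 FPKM in MIM396 against 200.4 FPKM, of which a single locus held 110.8 FPKM. By the size rule given below, 14 of the 16 could be called. Of these, 10 were higher in MIM396, 3 neither and 1 lower, with a log2 ratio of -2.21, beside 23.1% higher and 27.3% lower of 19456 loci. Of 12 loci listed as leaf photosynthesis genes, every one lay between 1877 and 17544 FPKM in the wild-type library and between 0.134 and 11.99 FPKM in the MIM396 library, which is 11.03% and 0.00831% of all FPKM. These levels go against the panicle label of the library labelled wild type, which is called wild type below by its label only. It may not be the labelled tissue, and a difference of genotype and one of tissue cannot be told apart in any ratio below. In bulk tissue, fewer cells of a type and less RNA per cell cannot be told apart.

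In level, the family was led by a few members in each library. In wild type, OsIAA17 (LOC_Os05g14180, chromosome 5, 7950871 to 7954386) stood highest at 226.6 FPKM from 4065 reads. It was followed by OsIAA10 (LOC_Os02g57250, chromosome 2, 35073370 to 35075801) at 131.9 FPKM and by OsIAA13 (LOC_Os03g53150, chromosome 3, 30476517 to 30483331) at 119.3 FPKM. These 3 members made up 62.0% of the summed Aux/IAA FPKM of the wild-type library. In MIM396 the order was OsIAA10 at 158.9 FPKM, OsIAA21 at 108.9 FPKM, OsIAA17 at 107.4 FPKM and OsIAA24 at 105.8 FPKM. The family was thus spread over more members in MIM396, where the first 3 made up 44.2% of the sum. OsIAA10, which is known in rice as the protein that the dwarf virus protein P2 binds and stabilises, held 17.1% of the family's level in wild type and 18.7% in MIM396.

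**Figure D1:**
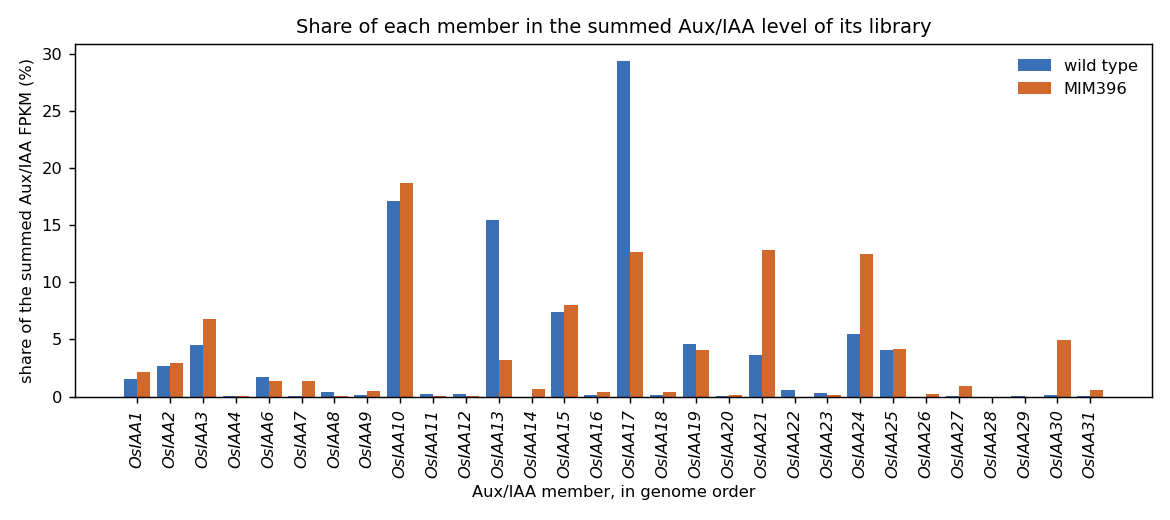
Share of each Aux/IAA member in the summed Aux/IAA FPKM of its library (vertical axis, percent) by member in genome order, with 1 bar for the wild-type and 1 for the MIM396 library. OsIAA17 and OsIAA13 hold 29.4% and 15.5% in wild type and 12.7% and 3.24% in MIM396, while OsIAA21 goes from 3.60% to 12.8%.

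The summed level of the 30 members was close in both libraries, at 771 FPKM for wild type and 848 FPKM for MIM396, 1.10 times as high. Set against each library's own total, the sums were 0.0908% and 0.167% of all FPKM. In recovered reads the family took 13294 reads, 0.0814% of the library (0.0800 to 0.0828%, 95% Clopper-Pearson interval), in wild type and 18559 reads, 0.141% (0.139 to 0.143%), in MIM396. Intervals here and below cover counting error only, because each group has 1 library. PCR copies could not be told from separate molecules, so the intervals may be too narrow even for that error. A sum that is similar in FPKM and unequal as a share follows from the unequal FPKM totals of the deposited table, 849095 and 506480. The 12 photosynthesis loci alone took the share of the wild-type total given above, 93638 FPKM, which is only a part of the gap between the totals. With each library's 50 most abundant loci out of the total, the family's shares were still unequal, at 0.135% in wild type and 0.202% in MIM396.

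The members were detected about as widely in both libraries. At least 1 FPKM was reached by 20 of the 30 in wild type and by 23 in MIM396, and at least 10 FPKM by 12 and 14. The median member stood at 2.07 FPKM and 6.74 FPKM, respectively. Across the 30 members, log2(FPKM + 1) in one library against the other gave Pearson r = 0.80 and Spearman rho = 0.70, and these were 0.40 and 0.44 across the 19456 loci averaging at least 1 FPKM. The 24 members of that mean level gave 0.75 and 0.68. All points share the same 2 libraries, so these are descriptions.

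**Figure D2:**
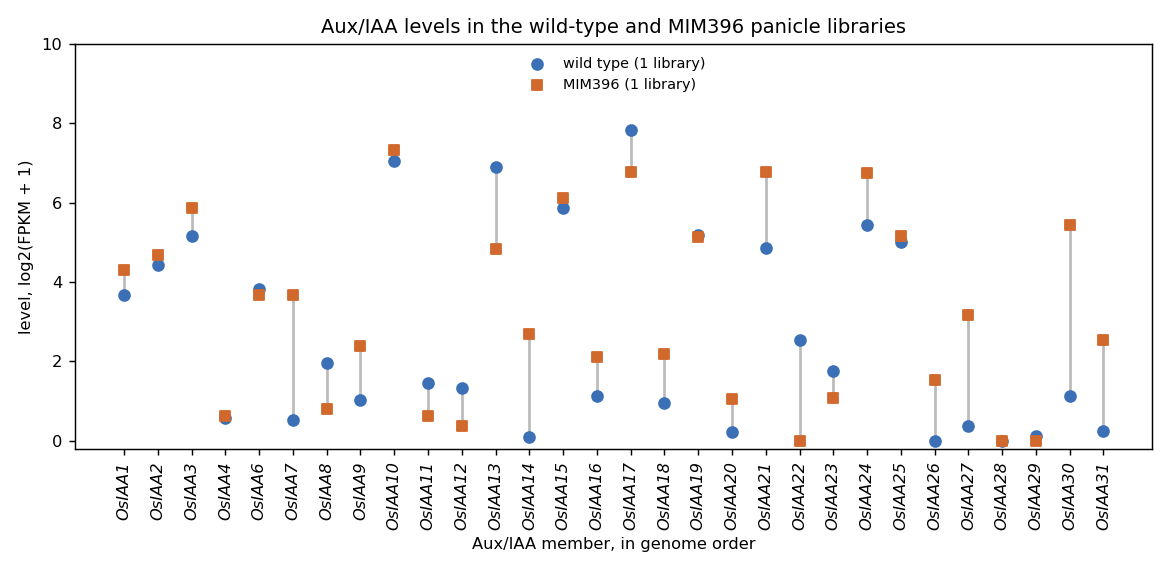
Level of each of the 30 Aux/IAA members as log2(FPKM + 1) (vertical axis) by member in genome order, with a circle for the wild-type and a square for the MIM396 library, joined by a line. The widest gap is at OsIAA30, at 1.18 FPKM in the wild-type and 42.1 FPKM in the MIM396 library. OsIAA19, at 35.4 and 34.3 FPKM, has almost none.

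A member was called higher or lower by size alone, when log2 of (MIM396 FPKM + 1) / (wild-type FPKM + 1) was at least 1 in either direction and the mean was at least 1 FPKM. Of the 30 members 24 had that mean. In MIM396, 9 of the 24 (37.5%) were at least 2-fold higher, against 23.1% of 19456 loci, 4 (16.7%) were at least 2-fold lower, against 27.3% of loci, and 11 were neither. The median log2 ratio of the 24 members was 0.44 (quartiles -0.29 and 1.51), and that of all loci -0.00038 (quartiles -1.16 and 0.91). Of the 9 higher members, 7 had under 1.5 FPKM in wild type. A member under 1 FPKM in 1 library can pass the mean only through the other, so the counts were also taken with no minimum. They were then 10 higher and 4 lower of 29 members with reads, beside 17.8% higher and 20.8% lower of 27254 loci. The split depended on how the libraries were scaled. With both brought to equal FPKM totals, 14 of 25 members were higher and 2 lower, beside 40.2% higher and 19.01% lower of 19498 loci. The median of all loci itself moved to 0.68 and that of the members to 1.32.

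**Figure D3:**
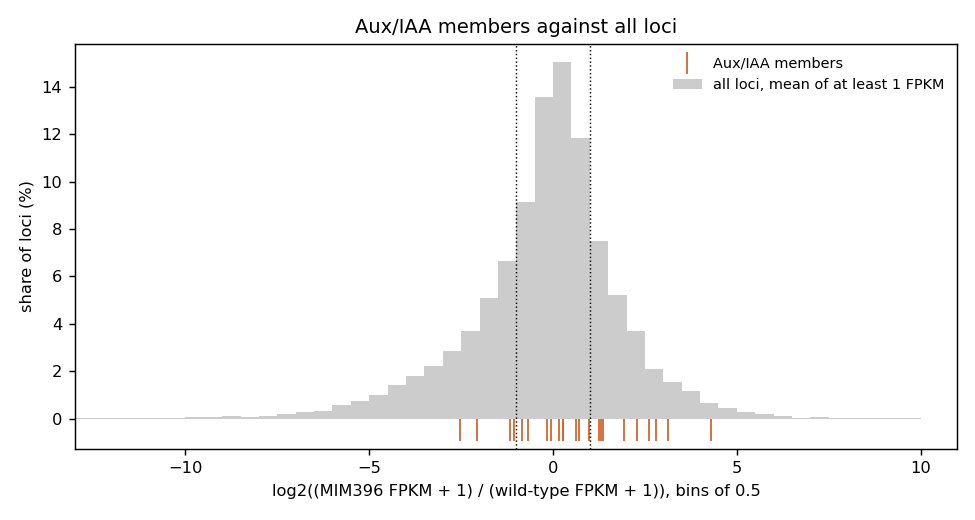
Share of 19456 loci (vertical axis, percent) by log2((MIM396 FPKM + 1) / (wild-type FPKM + 1)) in bins of 0.5, with the 24 Aux/IAA members of at least 1 FPKM mean as ticks and dotted lines at the 2-fold limits. The member ticks run from -2.53 to 4.31, inside the range of all loci.

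Among the higher members, 5 had a log2 ratio of at least 2, and each of them had at most 1.18 FPKM in wild type. OsIAA30 (LOC_Os12g40890, chromosome 12, 25310811 to 25316229) had 1.18 FPKM from 27 reads in wild type and 42.1 FPKM from 1198 reads in MIM396. The ratio of scaled reads was 35.4-fold (24.2 to 54.0, exact conditional binomial interval). OsIAA30 thus went from rank 19 to rank 7 in the family.

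OsIAA7 (LOC_Os02g13520, chromosome 2, 7245014 to 7248672) had 0.443 FPKM from 9 reads in wild type and 11.6 FPKM from 294 reads in MIM396, 26.1-fold higher (13.6 to 57.6). OsIAA27 (LOC_Os11g11410, chromosome 11, 6335892 to 6342309) had 0.295 FPKM from 6 reads and 8.01 FPKM from 183 reads, 24.4-fold higher (10.98 to 67.2). Both thus had 9 reads or fewer in the deeper of the libraries. OsIAA31 (LOC_Os12g40900, chromosome 12, 25325548 to 25327567) had 0.185 FPKM from 4 reads and 4.82 FPKM from 130 reads, 26.0-fold higher (9.90 to 96.7). OsIAA14 (LOC_Os03g58350, chromosome 3, 33246010 to 33247318) had 0.0700 FPKM from 1 read and 5.48 FPKM from 97 reads, a ratio of 77.5 (13.6 to 3090). The single wild-type read leaves the size of that ratio poorly set.

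The other 4 higher members differed less. OsIAA21 (LOC_Os06g22870, chromosome 6, 13345332 to 13349182) had 27.8 FPKM from 515 reads in wild type and 108.9 FPKM from 2507 reads in MIM396, 3.89-fold higher (3.53 to 4.28). OsIAA24 (LOC_Os07g08460, chromosome 7, 4355210 to 4356575) had 42.2 FPKM from 627 reads and 105.8 FPKM from 1958 reads, 2.49-fold higher (2.28 to 2.73). In FPKM these were the largest gains of the family, 81.1 and 63.6 FPKM, and they placed both genes among the 4 highest members of the MIM396 library. OsIAA9 (LOC_Os02g56120) had 1.02 and 4.23 FPKM, 4.12-fold higher (2.25 to 8.13), and OsIAA18 (LOC_Os05g44810) had 0.924 and 3.58 FPKM, 3.99-fold higher (2.31 to 7.32). Both rested on fewer reads, 13 and 67 for OsIAA9 and 16 and 80 for OsIAA18.

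The lower members included the leading gene of the wild-type library. OsIAA17 went from 226.6 FPKM to 107.4 FPKM, the latter from 2386 reads, 2.13-fold lower (2.03 to 2.25). OsIAA13, in which a stabilising mutation is known to impair lateral root initiation in rice, had 119.3 FPKM from 1878 reads and 27.5 FPKM from 553 reads, 4.25-fold lower (3.87 to 4.68). The table gives OsIAA13 the same interval as LOC_Os03g53140, which had 10.4 and 14.5 FPKM, so its reads are uncertain where those of the loci could not be separated. No other member overlapped another locus.

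OsIAA8 (LOC_Os02g49160, chromosome 2, 30064480 to 30066157) had 2.87 FPKM from 35 reads in wild type and 0.728 FPKM from 11 reads in MIM396, 3.98-fold lower (1.98 to 8.70). OsIAA22 (LOC_Os06g24850, chromosome 6, 14579527 to 14580059) had 4.79 FPKM from 20 reads in wild type and no read in MIM396, at least 8.35-fold lower against a floor of 3 reads in that library. With OsIAA22 at this bound the median of the 24 members stayed at 0.44. OsIAA22 is the shortest locus of the family, 533 bp, so few reads gave it a moderate FPKM. The calls of OsIAA8 and OsIAA17 were lost with the libraries at equal totals, where their log2 ratios were -0.73 and -0.33.

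**Figure D4:**
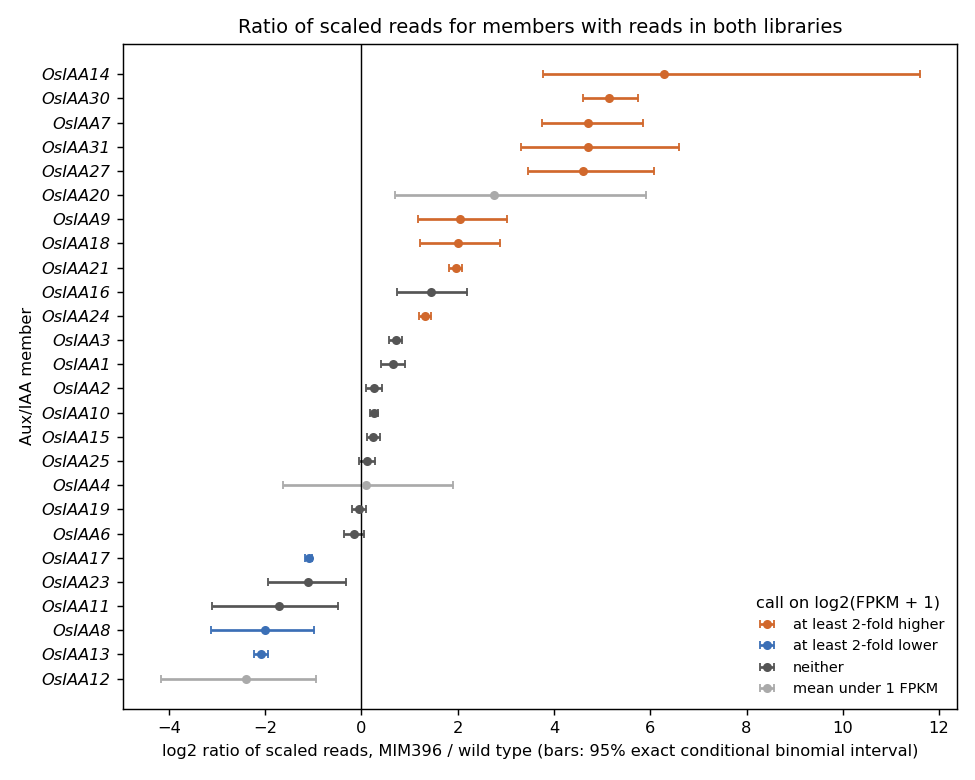
Log2 ratio of scaled reads, MIM396 over wild type (horizontal axis), for the 26 Aux/IAA members with reads in both libraries, sorted, with 95% exact conditional binomial intervals (counting error only) and coloured by the call on log2(FPKM + 1). OsIAA13 and OsIAA17 have narrow intervals below 0, and OsIAA14, with 1 wild-type read, has the widest interval, from 13.6-fold to 3090-fold.

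The members called neither held much of the family's level. OsIAA10 had 131.9 FPKM from 2219 reads and 158.9 FPKM from 3319 reads, a ratio of 1.19 (1.13 to 1.26). OsIAA15 (LOC_Os05g08570) had 56.9 and 68.3 FPKM, a ratio of 1.19 (1.08 to 1.30). OsIAA3 (LOC_Os01g13030) had 34.9 and 57.6 FPKM, a ratio of 1.63 (1.48 to 1.80). These 3 lay above 1 by more than counting error and under the 2-fold limit with the authors' scaling. At equal totals OsIAA10 and OsIAA3 passed that limit, with log2 ratios of 1.01 and 1.43, and OsIAA3 also did, at 1.15, with each library's 50 most abundant loci out.

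OsIAA19 (LOC_Os05g48590) had 35.4 and 34.3 FPKM, a ratio of 0.961 (0.871 to 1.06), and OsIAA25 (LOC_Os08g01780) had 31.3 and 34.99 FPKM, a ratio of 1.08 (0.963 to 1.21). OsIAA6 (LOC_Os01g53880), whose overexpression is known to raise drought tolerance in rice, had 13.1 and 11.6 FPKM, a ratio of 0.897 (0.779 to 1.03). For these 3 the interval held 1 under the authors' scaling. OsIAA2 (LOC_Os01g09450) had 20.6 and 24.8 FPKM, a ratio of 1.20 (1.07 to 1.34). OsIAA1 (LOC_Os01g08320), whose overexpression is known to alter auxin and brassinosteroid responses in rice, had 11.8 and 18.6 FPKM, a ratio of 1.57 (1.33 to 1.86). The log2 ratios of OsIAA6 and OsIAA19, -0.16 and -0.046, turned positive at equal totals, at 0.53 and 0.68. OsIAA1, at 0.62, passed the 2-fold limit at equal totals, with 1.32, and with each library's 50 most abundant loci out, with 1.04.

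The other 3 members called neither were low. OsIAA16 (LOC_Os05g09480) lay just outside the higher limit with a log2 ratio of 0.96, from 1.20 and 3.30 FPKM. Its scaled reads were 2.72-fold higher (1.67 to 4.60). OsIAA11 (LOC_Os03g43400), in which a stabilising mutation is known to block lateral root formation in rice, had 1.75 FPKM from 21 reads and 0.538 FPKM from 8 reads, 3.29-fold lower in scaled reads (1.40 to 8.58). OsIAA23 (LOC_Os06g39590), known for maintaining the quiescent centre of the rice root, had 2.39 FPKM from 38 reads and 1.11 FPKM from 22 reads, 2.16-fold lower (1.25 to 3.84). These 3 were past 2-fold in scaled reads and short of the limit on the log2(FPKM + 1) scale, where the added 1 FPKM shrinks ratios at low levels. On the read columns 10 members were higher and 6 lower, beside 25.5% and 29.7% of loci. Just inside the limits were OsIAA17, at -1.07, and OsIAA8, at -1.16.

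Under a mean of 1 FPKM were 6 members with at most 27 reads in either library. OsIAA26 (LOC_Os09g35870) had no read in wild type and 27 in MIM396 (1.86 FPKM), at least 7.19-fold higher against the floor of 3 reads in wild type. OsIAA12 (LOC_Os03g43410), known with an ARF for its part in leaf inclination in rice, had 1.52 FPKM from 21 reads and 0.292 FPKM from 5 reads, 5.26-fold lower (1.93 to 17.9). OsIAA20 had 2 and 17 reads, a ratio of 6.79 (1.61 to 60.6), and OsIAA4 had 6 and 8 reads, a ratio of 1.06 (0.324 to 3.72). OsIAA29 had 1 read in wild type and none in MIM396, and OsIAA28 had none in either, so neither was detectable at this depth.

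The members were also split by level. Of the 11 members that averaged at least 20 FPKM, 3 were higher, 2 lower and 6 neither, beside 21.4% higher, 32.7% lower and 45.9% neither of 6119 loci of that level. Their median absolute log2 ratio was 0.71, against 1.13 over those loci. Of the 13 members between 1 and 20 FPKM, 6 were higher, 2 lower and 5 neither, beside 23.9%, 24.8% and 51.3% of 13337 loci. Many of these members enter the class only through the library in which they are high, so the classes are not compared with each other.

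Some members are neighbours with no other locus of the table between them. OsIAA30 and OsIAA31 on chromosome 12 lay 9.32 kb apart and were both higher in MIM396, with log2 ratios of 4.31 and 2.30. OsIAA11 and OsIAA12 on chromosome 3 lay 10.5 kb apart and both had lower values in MIM396, with log2 ratios of -0.84 and -0.96, short of the limit. OsIAA27, OsIAA28 and OsIAA29 on chromosome 11 stood 6.18 and 6.86 kb apart, and of these 3 only OsIAA27 had more than 1 read in either library. Neighbours may share sequence, and the labels and headers do not say how reads matching several loci were counted.

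The authors' deposited table gives a false discovery rate (FDR) per locus, a p-value adjusted for multiple tests, from a test that is not named there. It rests on 1 library per group, so it cannot measure variation between plants of a genotype. Under 0.05 in the authors' deposited table were 4 of the 29 members with a read (13.8%), all higher in MIM396, against 10.2% of 27254 loci with a read in either direction. In the authors' deposited table these were OsIAA30 (0.00223), OsIAA14 (0.00376), OsIAA7 (0.00827) and OsIAA31 (0.0145). The authors' deposited table gave OsIAA27 0.117, OsIAA21 0.201, OsIAA24 0.492, OsIAA13 0.465 and OsIAA17 0.617. Each of the 4 under the limit had 27 or fewer wild-type reads.

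The binding data address where OsGRF6-GFP sat in callus chromatin. Of the 30 members, 0 were paired with any of the 142 listed peaks, where 0.313% of all loci were (175 of 55986). At so low a share most sets of 30 loci would hold 0, so this count says little about the family. The peak nearest to a member was peak 57 (chromosome 2, 30052571 to 30053728), 10.8 kb from OsIAA8. OsIAA14 lay 75.9 kb from peak 76, OsIAA2 83.4 kb from peak 5 and OsIAA15 96.1 kb from peak 103, and the median distance of the 30 members was 768 kb. Every listed peak had been assigned to a gene within 3 kb, and other peaks were not analysed here.

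Other parts of the auxin pathway were given by lists that, like the marker lists, come from general knowledge. The counts stand beside 23.1% higher and 27.3% lower of 19456 loci, whose median log2 ratio was -0.00038. Of 5 TIR1 and AFB receptor loci, 3 were higher in MIM396, 0 lower and 2 neither, with summed levels of 100.9 and 489.7 FPKM in wild type and MIM396. Of 3 TOPLESS-type corepressor loci, 1 was higher, 1 lower and 1 neither, at sums of 167.7 and 198.6 FPKM. Of 25 ARF loci 22 had a mean of at least 1 FPKM, with 12 higher, 1 lower and 9 neither and a median log2 ratio of 1.19. The ARFs that the peak table describes were LOC_Os02g35140, at 19.4 and 84.4 FPKM in wild type and MIM396, 4.33-fold higher (4.04 to 4.65), and LOC_Os01g70270, at 63.6 and 95.6 FPKM, a ratio of 1.497 (1.43 to 1.57).

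Many GH3 enzymes, though not all, attach amino acids to auxin, and many of their genes are known targets of auxin signalling, as many Aux/IAA genes are. Which of the listed loci respond to auxin was not tested. Of 13 GH3 loci 9 had a mean of at least 1 FPKM, with a median log2 ratio of 2.19. In MIM396 6 of them were higher, 1 lower and 2 neither, beside 23.1% higher and 27.3% lower of all loci. Their summed levels were 44.1 and 135.1 FPKM. In sum the Aux/IAA family, at 771 and 848 FPKM, was closer between the libraries than the receptor, ARF and GH3 lists, of which the ARF list summed to 334.6 and 880.0 FPKM. At equal totals the counts were 4 higher and 0 lower for the receptors, 18 and 0 for the ARFs, 6 and 0 for the GH3 loci and 1 and 1 for the corepressors, where 40.2% of all loci were higher and 19.01% lower. The difference between the lists was not tested.

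**Figure D5:**
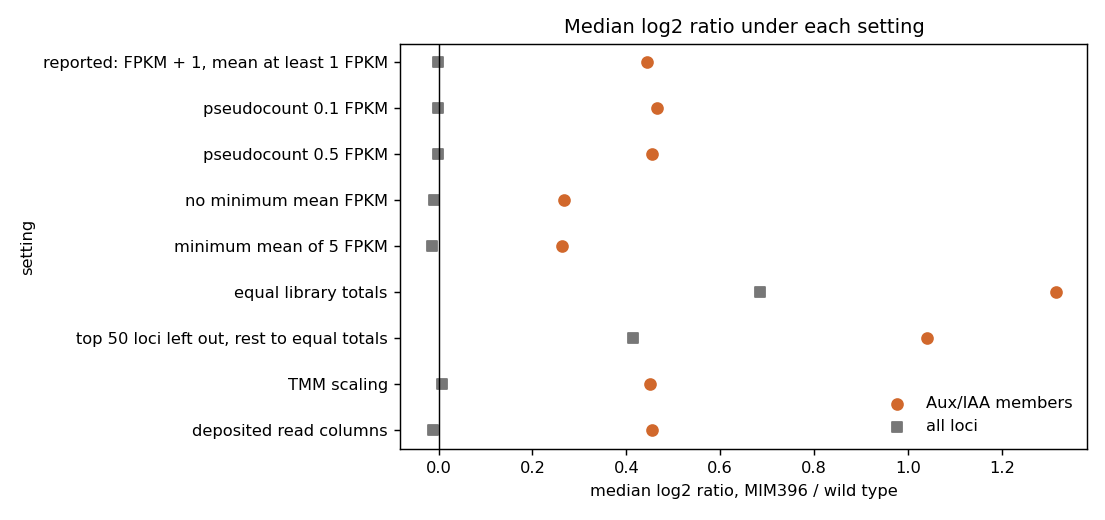
Median log2 ratio, MIM396 over wild type (horizontal axis), of the Aux/IAA members (circles) and of all loci (squares) under the reported setting (first line) and 8 alternatives. The members' median lies above that of all loci in each setting, by 0.28 with no minimum mean and with a minimum of 5 FPKM and by 0.63 at equal library totals. All settings use the same 2 libraries, and a rescaling moves both medians the same way, so they are not separate pieces of evidence.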

How the data were processed

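Per the labels' protocols, total RNA extracted with Trizol went into TruSeq libraries. FastQC and Bowtie are named, with no version, in the submitters' processing notes. Not given in the sources used here are the counter, its use of strand, the build and the annotation, so coordinates are those of the files. The deposited table gives FPKM per library, computed by the authors, and a read signal in which the authors scaled each library by a constant (1.057 for wild type, 0.844 for MIM396). Divided by that constant, 97.8% of the positive wild-type values and 99.0% of the MIM396 values came within 0.01 of whole reads. The FDR, a p-value, is the authors' own, and its test is not stated in the deposited table.

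Computed here, with Python 3.11.15, scipy 1.17.1 and edgeR 4.0.16 (TMM factors only), were log2 ratios of FPKM + 1, size calls and exact binomial intervals. The added 1 FPKM understates differences of low loci. With 1 library per group no count test was run. The scripts were tested on simulated data. Alternatives were the pseudocount, the minimum mean, the scaling, the read columns and the peak distance. Each member with a mean of at least 5 FPKM or past the 2-fold limit was named. Low members were named as well after their values were seen. The members and lists were chosen with earlier results of these data known.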

Additional observations from a re-analysis of the deposited data

How the results depend on the processing

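Log2 ratios under the alternatives were tallied for the members with a mean of at least 5 FPKM or past the 2-fold limit. Of these ratios, 148 kept their direction and call, 5 gained a call and 11 lost one. Another 4 changed sign without being called (OsIAA6 and OsIAA19, under both rescalings to equal totals). Members outside the tally gained calls too, with 10 higher and 6 lower at a pseudocount of 0.1 FPKM, beside 25.6% and 29.5% of loci. Of the lost calls, 4 fell inside the 2-fold limit (OsIAA8 and OsIAA17, each under both rescalings), and the rest, all at the minimum of 5 FPKM, had unchanged ratios and failed the minimum mean only. With a minimum mean of 5 FPKM, 14 members were tested, with 4 higher and 2 lower, beside 21.6% and 27.99% of 13912 loci. The median of these 14 members was 0.26, where all loci had -0.0147. OsIAA9, OsIAA14, OsIAA18, OsIAA27 and OsIAA31, called higher before, failed this minimum, each with at most 1.02 FPKM in wild type. OsIAA8 and OsIAA22, called lower before, failed it too. With no minimum the median was 0.27. At equal library totals 14 members were higher and 2 lower (40.2% and 19.01% of all loci), with a median of 1.32. With each library's 50 most abundant loci removed and the remainder at equal totals, 13 were higher and 2 lower (32.4% and 21.8% of all loci), and the median was 1.04, where all loci had 0.41. Both rescalings raise MIM396 against wild type for every locus, so no higher call could be lost under them. That all 9 members called higher stayed called is therefore no check of those calls. Of the 4 called lower, 2 stayed called under both rescalings, OsIAA13 and OsIAA22. Other pseudocounts, TMM scaling and the read columns gave 9 or 10 higher and 4 to 6 lower, beside 23.2% to 25.6% and 27.2% to 29.7% of loci. The read columns carry the authors' scaling, and TMM scaling lay close to it, with a median of 0.45. Neither therefore shows how far the results depend on scaling. The family's share of all FPKM was 0.135% in wild type and 0.202% in MIM396 with those abundant loci out of the total. Without OsIAA13, a choice made after seeing the data, the shares were 0.0768% and 0.162%, and the median was 0.62. No member lay within 1, 3, 5 or 10 kb of a listed peak. No paired analysis was possible because each group has 1 library. Depth limits the ratios of members with under 10 wild-type reads.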
